A study of Mus musculus with 6 samples.

Results

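The 9 genes described here belong to the pathway of leukemia inhibitory factor (LIF) and Stat3 in mouse embryonic stem cells (ESCs): the ligand gene Lif, the receptor genes Lifr and Il6st, the transcription factor gene Stat3, the feedback inhibitor gene Socs3, and the genes Bcl3, Pim1, Pim3 and Gbx2, which lie downstream of Stat3. They were taken by name, and all 9 had reads in every library, among 18857 genes with reads in at least 1 of the 6 libraries. PolyA RNA was sequenced from KH2 cells, an ESC line made for carrying Dox-inducible transgenes, on a C57BL/6 x 129 background. Each of the 6 groups had 1 library. They were the iErk1; Erk KO line (in which Erk1 comes from a doxycycline (Dox)-inducible transgene) after 96 h without Dox with PD0325901 in the last 48 h, the same line with Dox, after 48 h without Dox and after 96 h without Dox, wild-type KH2 cells given PD0325901 for 48 h, and untreated wild-type KH2 cells. PD0325901 inhibits Mek, the kinase that activates the Erk kinases Erk1 and Erk2. The 4 libraries of the engineered line share the Erk knockout and the transgene, so the library with Dox is not wild type. The inhibitor's dose, the use of feeder cells, the amount of LIF in the medium and the number of clones were not given in the labels.

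LIF binds its receptor Lifr, which pairs with gp130, the product of Il6st. The receptor-bound Jak kinases then phosphorylate Stat3, which moves to the nucleus and binds DNA. In mouse ESCs this branch sustains self-renewal, while the same receptor also feeds the Ras and Erk branch, which favours differentiation. Socs3 is a Stat3 target that binds gp130 and shuts the receptor off. Gbx2 is a homeobox gene that is best known for placing the boundary between midbrain and hindbrain, and in ESCs it is counted among the Stat3 targets that can sustain self-renewal.

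RefSeq gave a start site for all 9 genes, 11 sites in all, on build GRCm38.p6. The 250 bases before each start were searched for the Stat letters TTCNNNGAA, which read the same on both strands, and for the Ets letters CCGGAAG on both strands, Ets factors being common Erk substrates. The Stat letters stood before 1 of the 9 genes, Socs3, and in 7.02% of 32851 promoters of the same length. The Ets letters stood before 0 of the 9 and in 6.91% of all promoters. Both promoters that follow run 5′ to 3′ on the gene's strand, with the Stat letters in capitals. Socs3 (chr11:117969367-117969616, minus strand) is shown as the only match, which begins at position −154 from the start, and Gbx2 (chr1:89931177-89931426, minus strand) as the gene with the widest range of levels.
Socs3: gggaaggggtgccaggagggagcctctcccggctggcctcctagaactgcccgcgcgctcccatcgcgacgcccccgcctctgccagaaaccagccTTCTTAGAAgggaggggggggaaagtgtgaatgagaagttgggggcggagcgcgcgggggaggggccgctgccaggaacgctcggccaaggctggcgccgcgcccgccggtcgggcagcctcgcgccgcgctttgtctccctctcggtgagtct
Gbx2: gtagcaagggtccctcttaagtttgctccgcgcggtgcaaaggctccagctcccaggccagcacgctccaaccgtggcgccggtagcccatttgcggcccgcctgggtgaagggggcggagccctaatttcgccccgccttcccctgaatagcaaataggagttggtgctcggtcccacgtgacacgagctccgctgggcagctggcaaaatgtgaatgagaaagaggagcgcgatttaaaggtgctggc
A match in these letters is a description of the window and not a binding site.

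Reads assigned to genes totalled between 9.05 and 9.95 times 1e6 per library, and 1 read on a gene of 2 kb equalled 0.0502 to 0.0553 RPKM (reads scaled to the gene's length in kilobases and to the library total). Mapk3, which encodes Erk1, had 9.18 RPKM in Erk KO cells at 96 h with PD0325901, 14.8 RPKM with Dox, 6.86 RPKM at 48 h and 6.75 RPKM at 96 h, against 52.8 RPKM in treated and 56.4 RPKM in untreated KH2 cells. The Dox-maintained line therefore had lower Mapk3 RNA than KH2 cells (log2 ratio −1.90). The Erk target genes Spry4, Dusp6 and Etv4 were lower in both PD0325901 libraries than in their untreated partners and lower at 48 h without Dox than with Dox, which is the direction the labels give. All 3 were called higher at 96 h than at 48 h without Dox (log2 ratio 1.76 for Spry4, 1.03 for Dusp6 and 1.49 for Etv4), which is not the direction seen between 48 h and the line with Dox. At 96 h against the line with Dox, Spry4 (−1.82) and Dusp6 (−1.93) were called lower and Etv4 (−0.86) was not called. The 96 h library is the untreated partner of the inhibitor pair in Erk KO cells. All 10 ESC markers had reads in every library, with a summed level between 2868 and 4324 RPKM. With 1 library per group, a ratio compares a pair of libraries rather than 2 conditions, and its 95% interval holds no more than counting error. A gene was called when the log2 ratio of RPKM plus 0.5 was at least 1 in size, the higher library had at least 1 RPKM, both libraries held at least 20 reads together and the interval of the ratio of scaled reads excluded 1. All 9 genes passed the filter on low reads in all 6 comparisons.

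Gbx2 had the widest range of the 9 genes. Its highest library stood 17.0-fold above its lowest, against 5.23-fold for Lif, 3.33-fold for Bcl3, 2.93-fold for Pim1 and 1.25-fold to 2.31-fold for the other 5. The 3 genes that carry the signal through the membrane to the nucleus, Lifr, Il6st and Stat3, had the narrowest ranges, of 1.53-fold, 1.49-fold and 1.25-fold, and none of them was called in any of the 6 comparisons. Ranges of this kind include counting error, which is larger for Gbx2 and Lif, the genes with the fewest reads. Ranges, orders of level and intervals of neighbouring libraries use the levels as deposited. The TMM scaling factors, which multiply RPKM, were 0.842 for treated and 0.851 for untreated KH2 cells and 1.04 to 1.14 for the engineered line. Orders that cross the 2 lines, such as those of Pim1 and Il6st, therefore depend on the scaling.

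**Figure D1:**
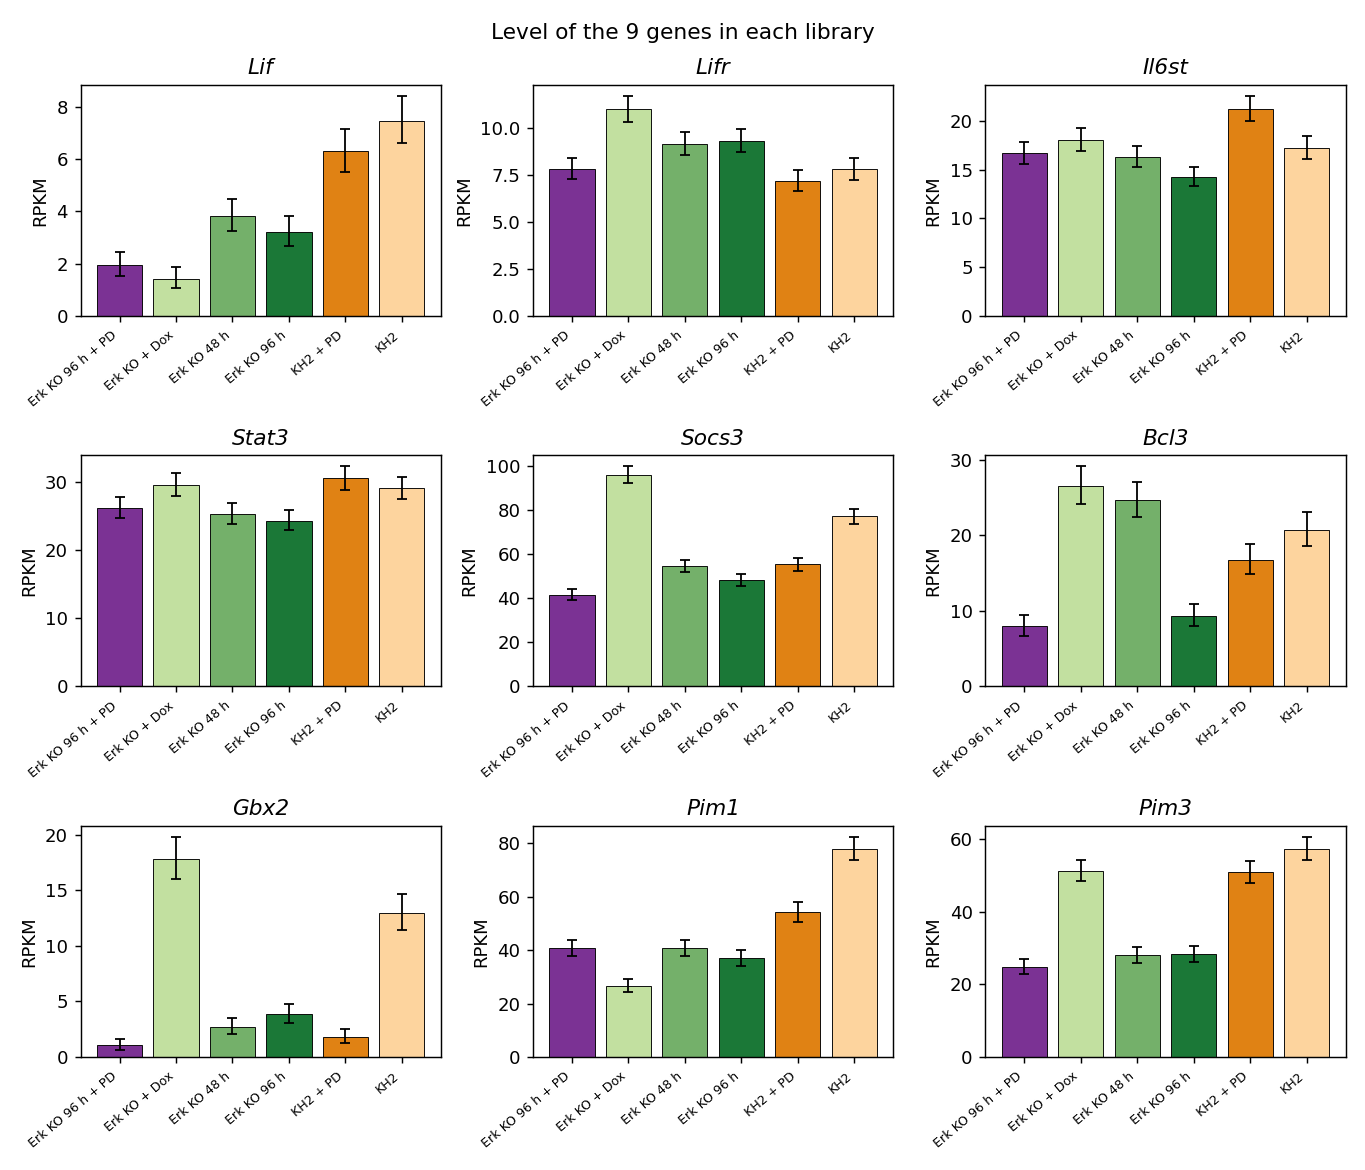
RPKM of the 9 genes (one panel each, vertical axis from 0 and scaled to each gene) in the 6 libraries; error bars are exact 95% Poisson intervals of the reads. Gbx2 is tall in 2 libraries, the engineered line with Dox (17.8 RPKM) and untreated KH2 cells (12.9 RPKM), and at most 3.87 RPKM in the other 4, while Stat3 lies between 24.4 and 30.6 RPKM throughout.

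The ligand gene had a lower RPKM in every library than the receptor genes and Stat3. Lif (gene ID 16878) had 77 reads (1.95 RPKM) in Erk KO cells at 96 h with PD0325901, 54 reads (1.43 RPKM) with Dox, 149 reads (3.82 RPKM) at 48 h, 129 reads (3.23 RPKM) at 96 h, 229 reads (6.30 RPKM) in treated KH2 cells and 273 reads (7.48 RPKM) in untreated KH2 cells. Both KH2 libraries were above all 4 libraries of the engineered line, and the line with Dox was the lowest. The intervals of 3 neighbouring pairs in this order included 1: untreated with treated KH2 cells, 48 h with 96 h, and the treated 96 h library with the Dox library.

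The receptor and signal genes had narrow ranges over the 6 libraries. Lifr (gene ID 16880), the LIF-binding receptor chain, had 743 reads in Erk KO cells at 96 h with PD0325901, 1000 reads with Dox, 858 reads at 48 h, 897 reads at 96 h, 628 reads in treated KH2 cells and 685 reads in untreated KH2 cells. Its level was highest in the line with Dox and lowest in treated KH2 cells, at 7.18 RPKM. Il6st (gene ID 16195), the chain shared by the whole cytokine family, had 895 reads in Erk KO cells at 96 h with PD0325901, 926 reads with Dox, 864 reads at 48 h, 775 reads at 96 h, 1048 reads in treated KH2 cells and 854 reads in untreated KH2 cells. As deposited, it was highest in treated KH2 cells, at 21.2 RPKM, and lowest at 96 h without Dox, at 14.3 RPKM. Stat3 (gene ID 20848) had 1157 reads in Erk KO cells at 96 h with PD0325901, 1250 reads with Dox, 1106 reads at 48 h, 1088 reads at 96 h, 1241 reads in treated KH2 cells and 1187 reads in untreated KH2 cells. Of its 5 neighbouring pairs in order of level, 4 had an interval that included 1. Among the 9 genes, Il6st and Stat3 had the most similar pattern, with a root mean square difference of 0.0807 between their centred log2 levels over the 6 libraries.

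The feedback inhibitor gene was highest in the 2 libraries with neither inhibitor nor Dox withdrawal. Socs3 (gene ID 12702) had 1123 reads (41.7 RPKM) in Erk KO cells at 96 h with PD0325901, 2475 reads (95.9 RPKM) with Dox, 1453 reads (54.6 RPKM) at 48 h, 1317 reads (48.2 RPKM) at 96 h, 1375 reads (55.4 RPKM) in treated KH2 cells and 1923 reads (77.2 RPKM) in untreated KH2 cells. Treated KH2 cells and the 48 h library were the only neighbouring pair whose interval included 1.

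Bcl3 and the Pim genes each had an order of their own. Bcl3 (gene ID 12051), which encodes a nuclear partner of NF-kB factors, had 144 reads (7.98 RPKM) in Erk KO cells at 96 h with PD0325901, 459 reads (26.6 RPKM) with Dox, 440 reads (24.7 RPKM) at 48 h, 171 reads (9.36 RPKM) at 96 h, 279 reads (16.8 RPKM) in treated KH2 cells and 346 reads (20.7 RPKM) in untreated KH2 cells. The 2 libraries at 96 h without Dox, treated and untreated, were the lowest, and the 48 h library lay next to the library with Dox. Pim1 (gene ID 18712), a serine/threonine kinase gene, had 708 reads (40.7 RPKM) in Erk KO cells at 96 h with PD0325901, 442 reads (26.6 RPKM) with Dox, 698 reads (40.7 RPKM) at 48 h, 652 reads (37.0 RPKM) at 96 h, 868 reads (54.2 RPKM) in treated KH2 cells and 1253 reads (77.9 RPKM) in untreated KH2 cells. As deposited, the library with Dox was the lowest and both KH2 libraries were the highest, an order that depends on the scaling. Pim3 (gene ID 223775), its paralog, had 589 reads (24.8 RPKM) in Erk KO cells at 96 h with PD0325901, 1168 reads (51.3 RPKM) with Dox, 657 reads (27.99 RPKM) at 48 h, 680 reads (28.2 RPKM) at 96 h, 1113 reads (50.8 RPKM) in treated KH2 cells and 1260 reads (57.3 RPKM) in untreated KH2 cells. Pim3 was thus high in the library with Dox, where Pim1 was at its lowest, and low in the 3 libraries without Dox. Reads were counted only where they mapped uniquely, so reads shared by near-identical stretches of paralogs would be missing from both.

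Gbx2 (gene ID 14472) had 22 reads (1.053 RPKM) in Erk KO cells at 96 h with PD0325901, 357 reads (17.8 RPKM) with Dox, 56 reads (2.71 RPKM) at 48 h, 82 reads (3.87 RPKM) at 96 h, 35 reads (1.82 RPKM) in treated KH2 cells and 250 reads (12.9 RPKM) in untreated KH2 cells. The library with both Dox withdrawal and inhibitor was the lowest, but its interval against treated KH2 cells included 1, and so did that of treated KH2 cells against the 48 h library.

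The design's first question was what Mek inhibition does in wild-type ESCs. Of the 9 genes, 0 were called higher and 1 lower in treated KH2 cells, where 5.08% of 12787 genes tested were called, 3.86% higher and 1.22% lower. The 1 gene was Gbx2 (log2 ratio −2.53), 7.11-fold lower by scaled reads (95% interval 4.98 to 10.4). The negative ratios of Pim1 (−0.52), Socs3 (−0.47), Bcl3 (−0.30) and Pim3 (−0.17) were below the limit of 2-fold, with intervals that excluded 1, and Il6st (0.29) was the largest positive one. Lif (−0.23), Lifr (−0.11) and Stat3 (0.07) had intervals that included 1. The median of the 9 was −0.23, against −0.02 for all genes tested.

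In Erk KO cells at 96 h the inhibitor was added to cells that had already lost Dox for 48 h. Again 0 of the 9 were called higher and 1 lower, Gbx2, at a log2 ratio of −1.49 and 3.68-fold lower by scaled reads (2.28 to 6.19). In this pair 1.93% of 11920 genes tested were called, 1.34% higher and 0.587% lower. Gbx2 rested on 22 treated and 82 untreated reads. Lif had 77 treated and 129 untreated reads and a log2 ratio of −0.61, short of the limit, with an interval that excluded 1. The others lay between −0.24 (Lifr) and 0.22 (Il6st), and the median of the 9 was −0.21, against 0.01 for all genes tested.

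**Figure D2:**
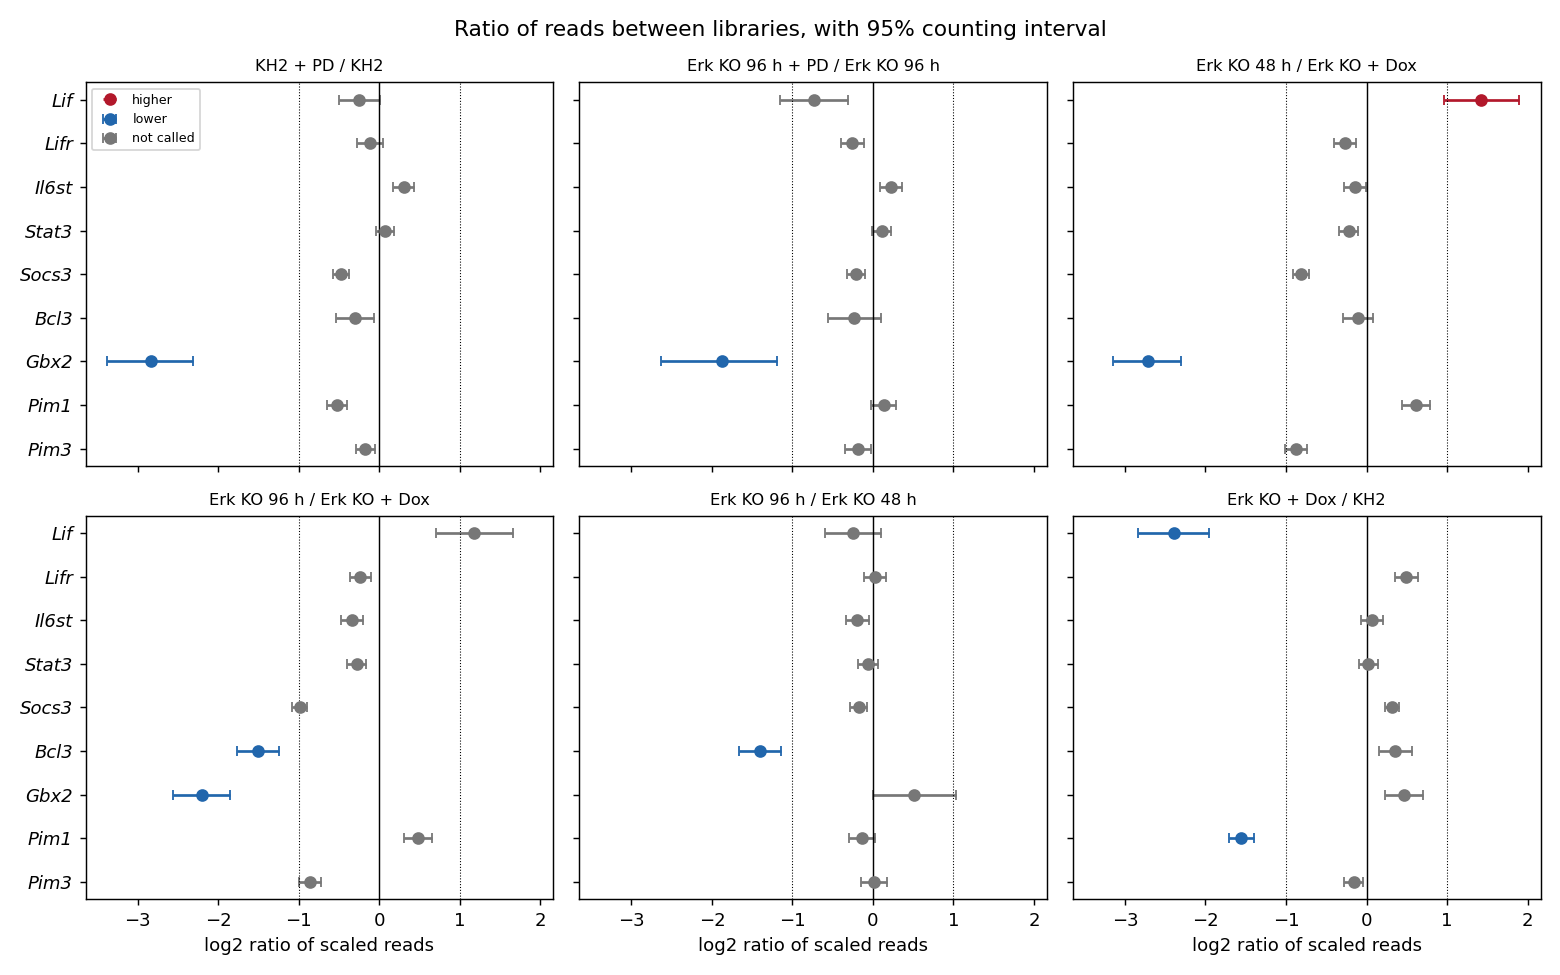
Log2 ratio of scaled reads (horizontal axis) of the 9 genes in the 6 comparisons (one panel each), with exact 95% intervals of the counting error; dotted lines mark 2-fold, red and blue points were called higher and lower. The call uses RPKM plus 0.5, so Lif after 96 h without Dox lies beyond 2-fold here and is not called. Gbx2 is the only called gene in each inhibitor panel.

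The 4 libraries of the 2 inhibitor pairs allowed a test of an effect common to both cell states, by the quasi-likelihood F test of edgeR, blocked by cell state and with 1 residual degree of freedom. That degree holds the difference between the 2 pairs, which stand in for replicates that the design lacks. Its p-values therefore do not measure the spread between cultures of 1 condition. The common dispersion, edgeR's spread over all genes, was 0.00756, against 0.0284 with all 6 libraries and 0.163 without the block. Gbx2 fell by 2.45 on the log2 scale (SE 0.256, edgeR adjusted p = 1.24e-05), lower in both pairs. Socs3 fell by 0.35 (SE 0.1003, edgeR adjusted p = 0.0427), also lower in both pairs; its adjusted p in DESeq2 was 0.384. Of the 9 genes 0 rose and 2 fell, where 8.97% of 14782 genes tested passed, 6.05% higher and 2.92% lower. The other 7 did not pass, with edgeR adjusted p-values of 0.154 for Lif (−0.44), 0.125 for Il6st (0.26), 0.313 for Bcl3 (−0.27), 0.318 for Lifr (−0.19) and Pim3 (−0.18), 0.385 for Pim1 (−0.20) and 0.652 for Stat3 (0.09). Without the block, edgeR called 0 genes, higher or lower, while 270 had an unadjusted p under 0.05. Gbx2 (−2.50) was among them, at an unadjusted edgeR p of 0.0109.

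Whether the inhibitor acted differently in Erk KO and KH2 cells was tested over all 6 libraries, with the 48 h and 96 h libraries as 1 state. The spread of this test is the difference between those 2 libraries, so it holds the change with time without Dox and not replicate error. Between them 5.02% of 11722 genes tested were called. The untreated Erk KO level in this test is that of both libraries together, not of the 96 h partner alone. None of the 15103 genes passed, which is 0%, while 129 had an unadjusted p under 0.05, and in DESeq2 0 passed and 30 did. For Gbx2 the change in Erk KO cells minus that in KH2 cells was 1.15 on the log2 scale (SE 0.652, edgeR adjusted p = 0.9998), and for Pim1 it was 0.54 (SE 0.377) with the same adjusted p. By counting error alone, the difference for Gbx2 was 0.95 (0.10 to 1.80), for Pim1 0.66 (0.46 to 0.86) and for Socs3 0.27 (0.11 to 0.42). A test that does not pass with this spread does not show that the responses were alike.

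Switching Erk1 off was the design's other question. After 48 h without Dox 1 of the 9 genes was called higher and 1 lower than with Dox, where 4.89% of 11386 genes tested were called, 2.77% higher and 2.13% lower. Gbx2 was the lower one (log2 ratio −2.51), 6.57-fold lower by scaled reads (4.95 to 8.88). Lif was the higher one (1.16), 2.68-fold higher (1.95 to 3.72), on 149 reads against 54, and its call was lost with a pseudocount of 1 (0.99). Pim3 (−0.86) and Socs3 (−0.81) were lower but under 2-fold, Pim1 (0.61) was higher but under 2-fold, and Bcl3 (−0.10) had an interval that included 1. Lifr (−0.25), Stat3 (−0.22) and Il6st (−0.14) were slightly lower, and the median of the 9 was −0.22, against −0.03 for all genes tested.

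After 96 h without Dox, 0 of the 9 were called higher and 2 lower than with Dox, where 9.68% of 11804 genes tested were called, 7.62% higher and 2.07% lower. Gbx2 had a log2 ratio of −2.07 and was 4.61-fold lower by scaled reads (3.61 to 5.93). Bcl3 had a log2 ratio of −1.46 and was 2.84-fold lower (2.38 to 3.41). Socs3 (−0.98) and Lif (0.95) lay just inside the limit: Socs3 was called lower when scaled by TMM (−1.10) or DESeq2 size factors (−1.12), and Lif was called higher with a pseudocount of 0.1 (1.12). Pim3 stood at −0.85, Il6st at −0.33, Stat3 at −0.28, Lifr at −0.23 and Pim1 at 0.47. Of the genes called in this comparison 899 were higher and 244 lower, and with DESeq2 size factors 746 were higher and 345 lower; the median over all genes tested was 0.05 as deposited and −0.08 with those factors.

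Between 48 h and 96 h without Dox, Bcl3 was the 1 of the 9 genes called, at a log2 ratio of −1.35 and 2.64-fold lower at 96 h (2.21 to 3.17), where 5.02% of 11722 genes tested were called, 4.55% higher and 0.469% lower. As deposited, Gbx2 was 1.43-fold higher at 96 h than at 48 h (1.004 to 2.04), which did not reach the limit. The lower bound of its interval was just above 1. The TMM factor, which multiplies RPKM, was larger at 48 h (1.14) than at 96 h (1.04). It therefore lowers this ratio, and whether the interval excludes 1 depends on the scaling. The other 7 lay between −0.21 (Lif) and 0.03 (Lifr). The signs of Lifr and Pim3 (0.01) turned when scaled by TMM (−0.09 and −0.11) or DESeq2 size factors (−0.11 and −0.13). The library with Dox, the 48 h and 96 h libraries and untreated KH2 cells each serve in more than 1 comparison, so the ratios that share a library are not separate evidence.

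The line with Dox was also set against untreated KH2 cells. Of the 9 genes 0 were called higher and 2 lower in the line with Dox, where 24.2% of 12421 genes tested were called, 2.76% higher and 21.4% lower. The 2 lower calls among the 9 lie near the share of lower genes over all genes. Lif (log2 ratio −2.05) was 5.23-fold lower by scaled reads (3.90 to 7.14), and Pim1 (−1.54) was 2.93-fold lower (2.63 to 3.28). Gbx2 (0.45), Lifr (0.47), Bcl3 (0.35), Socs3 (0.31), Il6st (0.07), Stat3 (0.02) and Pim3 (−0.16) were not called. This comparison depended on the scaling: the median over all genes was −0.37 as deposited and 0.02 with TMM, and the called genes were 343 higher and 2662 lower as deposited, 1006 higher and 1419 lower with TMM, and 1141 higher and 1325 lower with DESeq2 size factors. With TMM, Lif (−1.70) and Pim1 (−1.13) were still called, Lifr (0.85), Gbx2 (0.84), Bcl3 (0.75), Socs3 (0.72), Il6st (0.46) and Stat3 (0.42) were further above 0, and Pim3 turned to 0.25.

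The other genes of the pathway were counted in 7 groups, which held 52 genes beside the 9. In treated against untreated KH2 cells, where 47 of the 52 were tested and the shares over all genes were 3.86% higher and 1.22% lower, 2 were called higher, the cytokine gene Clcf1 (1.27) and the oncostatin M receptor gene Osmr (1.65), and 2 lower, the kinase gene Pim2 (−1.14) and Myc (−1.07). In treated against untreated Erk KO cells, with 47 tested and shares of 1.34% higher and 0.587% lower over all genes, 2 were higher, Il6 (1.86) and Osmr (1.44), and 1 lower, Myc (−1.52). Clcf1 rested on 22 reads in treated against 7 reads in untreated KH2 cells (95% interval of the ratio 1.30 to 8.75). Osmr had 248 reads in treated Erk KO cells against 77 reads without the inhibitor, and 344 reads in treated against 95 reads in untreated KH2 cells. In edgeR's common test, Osmr rose by 1.79 (SE 0.169, adjusted p = 4.38e-06), and the gp130 ligand gene Il6 (1.26, adjusted p = 0.0271) rose as well. Il6 did not pass in DESeq2, with an adjusted p of 0.216. The medians of the 52 were 0.07 in KH2 cells and 0.04 in Erk KO cells, against −0.02 and 0.01 for all genes tested.

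Over all genes in that edgeR test, 6.05% rose and 2.92% fell, and the counts of 0 to 4 genes in the groups below are to be read against these shares. Group by group, with the 9 genes included, 2 of 9 ligand genes (7 of them tested) rose and 0 fell, 1 of 6 receptor genes rose (Osmr), and 1 of 11 Jak and Stat genes rose, Jak1 (0.42, adjusted p = 0.0227). Of 16 inhibitor and phosphatase genes 0 rose and 2 fell, Socs3 and Socs2 (−0.90, adjusted p = 0.00113), which encodes a feedback inhibitor of cytokine receptors. Of 13 genes listed as Stat3 targets in ESCs, Klf4 (0.53, adjusted p = 0.00738) and Tfcp2l1 (0.68, adjusted p = 0.00161) rose in edgeR's test, both factors of naive pluripotency. From the same list 4 fell: Gbx2, Socs3, Pim2 (−0.67, adjusted p = 0.0387) and Myc (−1.34, adjusted p = 6.11e-05). No NF-kB partner of Bcl3 (0 of 5) and neither Gbx1 nor Otx2 passed. With DESeq2 size factors in edgeR, 1 of the 5 partners passed as higher, and 1 gene of the pair Gbx1 and Otx2 passed as lower. In DESeq2, Osmr, Socs2, Tfcp2l1 and Myc passed beside Gbx2, and Klf4 (adjusted p = 0.0565), Jak1 and Pim2 (adjusted p = 0.273 each) did not. In edgeR's fit of all 6 libraries, Gbx2 and Osmr (adjusted p = 0.0134) passed, and Il6, Jak1, Socs2, Socs3, Klf4, Tfcp2l1, Pim2 and Myc did not, with adjusted p-values between 0.0752 for Socs2 and 0.905 for Tfcp2l1. Without the block, none of these genes passed.

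**Figure D3:**
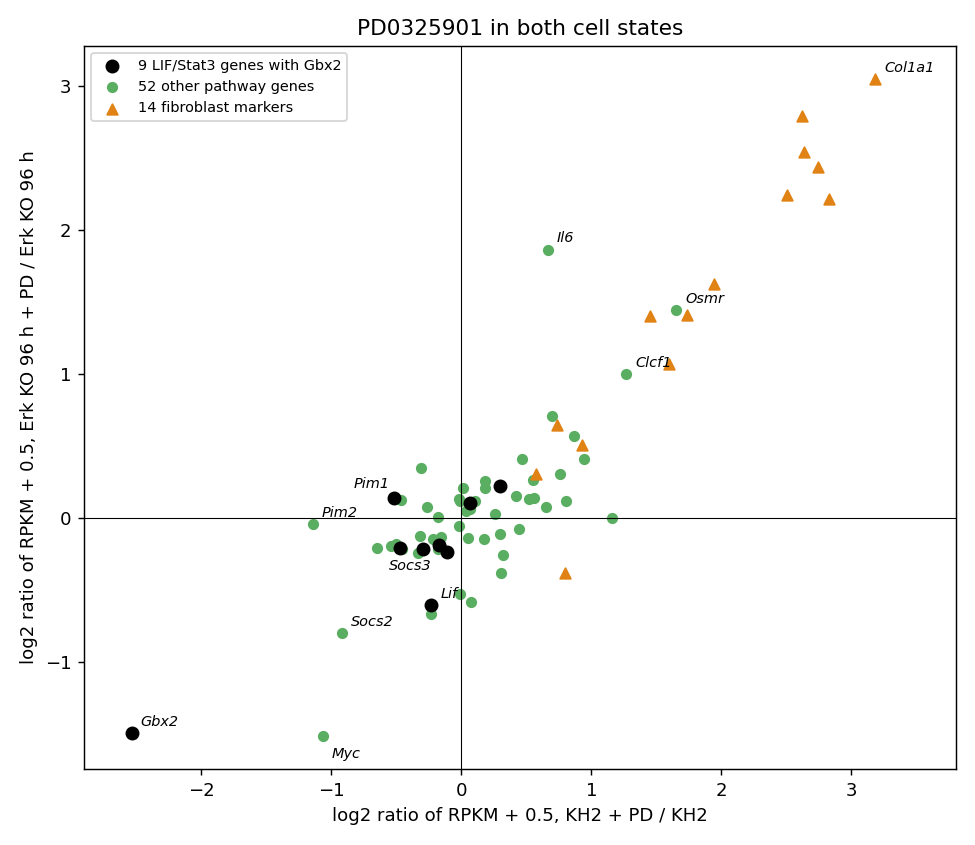
Log2 ratio of RPKM plus 0.5 for PD0325901 in KH2 cells (horizontal axis) and in Erk KO cells at 96 h (vertical axis); black points are the 9 genes, green points the 52 other pathway genes and orange triangles 14 fibroblast markers. Gbx2 lies farthest to the lower left (−2.53 and −1.49), and Osmr (1.65 and 1.44) lies among the fibroblast markers.

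Markers of fibroblasts were higher with the inhibitor in both pairs. The summed level of 14 fibroblast markers was 785 RPKM in treated against 166 RPKM in untreated Erk KO cells, and 2321 RPKM in treated against 392 RPKM in untreated KH2 cells; 10 of 14 were called higher in each pair, 12 of 14 rose in edgeR's common test, and all 14 had reads in every library. The engineered line with Dox had 111 RPKM, against 392 RPKM in untreated KH2 cells, with 8 of 14 called lower, in the comparison where Lif and Pim1 were lower. There 21.4% of all genes tested were called lower, a share that depended on the scaling. Osmr and Il6 had more reads in both treated libraries than in their untreated partners. Of the fibroblast markers, 14 had a positive log2 ratio in KH2 cells and 13 in Erk KO cells. The 1 negative ratio was that of Lum, with 9 treated and 15 untreated reads in Erk KO cells. Clcf1 was called in KH2 cells but had only 6 treated and 1 untreated reads in Erk KO cells. The part of fibroblast RNA in the values of the ligand and receptor genes was not tested. The 5 macrophage markers summed to between 8.90 and 22.8 RPKM, with Ptprc at 0 in treated KH2 cells and Adgre1 at 0 in the line with Dox and in untreated KH2 cells. In the line without Dox, where Lif was called higher than with Dox at 48 h and not at 96 h, Lyz2 was called higher at both times, with 20 reads with Dox, 63 reads at 48 h and 86 reads at 96 h, and Adgre1 had 0, 16 and 16 reads at these points. The macrophage markers did not move together at 48 h, where 2 of 5 had a positive and 3 a negative log2 ratio. From Dox to 48 h, Ptprc went from 3 to 1 reads, Csf1r from 3 to 3 and Cd68 from 64 to 65. At 96 h against the line with Dox, 4 had a positive and 1 a negative ratio. The 8 primitive endoderm markers summed to between 107 and 224 RPKM, and at 96 h against the line with Dox 4 of 8 were called lower, Gata6, Sox7, Dab2 and Lama1. Dab2 had 581 reads with Dox, 570 reads at 48 h and 132 reads at 96 h, an order that Bcl3 also had with 459, 440 and 171 reads. The 8 markers did not share this course. Gata6 had 250, 80 and 38 reads at these points and was already called lower at 48 h, and Col4a1 had 3356, 3765 and 6463 reads. At 96 h against the line with Dox, 7 of 8 had a negative and 1 a positive log2 ratio, and the summed level was 119 against 116 RPKM. The part of either cell type in the values of Lif and Bcl3 was not tested. In bulk RNA, fewer cells of a type and less RNA per cell cannot be told apart.

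Other target and Stat genes were called besides the 9 when Dox was withdrawn. At 48 h, where 38 of the 52 were tested and 2.77% of all genes were higher and 2.13% lower, 3 were called higher than with Dox, Pramel7 (3.90), a Stat3 target of naive cells, Cish (1.14) and Otx2 (1.06), and 2 lower, Myc (−2.35) and the CNTF receptor gene Cntfr (−2.31). Cish had 42 reads at 48 h against 13 reads with Dox, and its call was lost with a pseudocount of 1. Otx2 encodes a homeobox factor that opposes Gbx2 in the early brain. At 96 h, where 44 were tested and 7.62% of all genes were higher and 2.07% lower, 5 were higher, among them Pramel7 (4.20), Otx2 (2.05), Stat2 (1.97) and Ptpn6 (1.18), and 4 lower, Cntfr (−1.61), Junb (−1.28), Klf5 (−1.20) and Myc (−1.14). Pramel7 rested on 203 reads at 48 h and 258 reads at 96 h, against 5 reads with Dox, and had 0 and 2 reads in the treated and untreated KH2 libraries.

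At 96 h against 48 h without Dox, where 45 of the 52 were tested and 4.55% of all genes were higher and 0.469% lower, 4 were called higher, among them Stat2 (1.53), Myc (1.21) and Socs1 (1.10), and Tfcp2l1 (−1.15) was called lower. Socs1 had 23 reads at 96 h against 7 reads at 48 h, and its call was lost with a pseudocount of 1. Stat2, a Stat gene of the interferon response, had 1045 reads at 96 h, against 340 reads at 48 h. Stat3 had 1088 reads at 96 h, against 1106 reads at 48 h. In the line with Dox against untreated KH2 cells, where 45 were tested and 2.76% of all genes were higher and 21.4% lower, 2 were higher, Tfcp2l1 (1.06) and Klf5 (1.051), and 12 lower, among them Pim2 (−2.62), Il6 (−2.56), Socs1 (−2.36), Cish (−2.16), Ptpn6 (−1.56), Otx2 (−1.24), Il11 (−1.23), Ctf1 (−1.07), Osmr (−1.04), Stat5a (−1.03) and Jak3 (−1.03). The 12 lower calls lie near the share of lower genes over all genes. With TMM, Il11, Ctf1, Osmr, Stat5a, Jak3 and Otx2 were no longer called. Myc and Rela, higher in the line with Dox, were called instead. DESeq2 size factors added Ptpn2 and Klf4 to these, also higher in that line. The medians of the 52 were 0.00 at 48 h, 0.19 at 96 h, 0.20 for 96 h against 48 h and −0.44 for the line with Dox against KH2 cells, against −0.03, 0.05, 0.08 and −0.37 for all genes tested.

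The genes most like Gbx2 over the 6 libraries were sought among 10325 genes with at least 100 reads and 1 RPKM in their highest library, by the root mean square difference of centred log2(RPKM + 0.5). The nearest was Dusp6, the gene of an Erk phosphatase, at 0.205 (Pearson r = 0.987 over the 6 libraries of KH2 cells and the engineered line, given as a description). Dusp6 had 4.27 RPKM in Erk KO cells at 96 h with PD0325901, 53.5 RPKM with Dox, 6.45 RPKM at 48 h, 13.7 RPKM at 96 h, 6.95 RPKM in treated KH2 cells and 34.8 RPKM in untreated KH2 cells. Zfp423 (0.278), Tgm3 (0.353), Myrf (0.382) and Kirrel2 (0.474) followed. For Socs3 the nearest were Gfm2 (0.0734), Cisd2 (0.0753), Zbtb12 (0.0907), Taf15 (0.097) and Tfeb (0.101), and for Lif they were Timm8b (0.208), Cxcr2 (0.212), Rgs16 (0.232), Tm4sf1 (0.247) and Gprc5b (0.259). A gene with a wide range, such as Gbx2, leaves room for few close matches, and a narrow one for many.

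**Figure D4:**
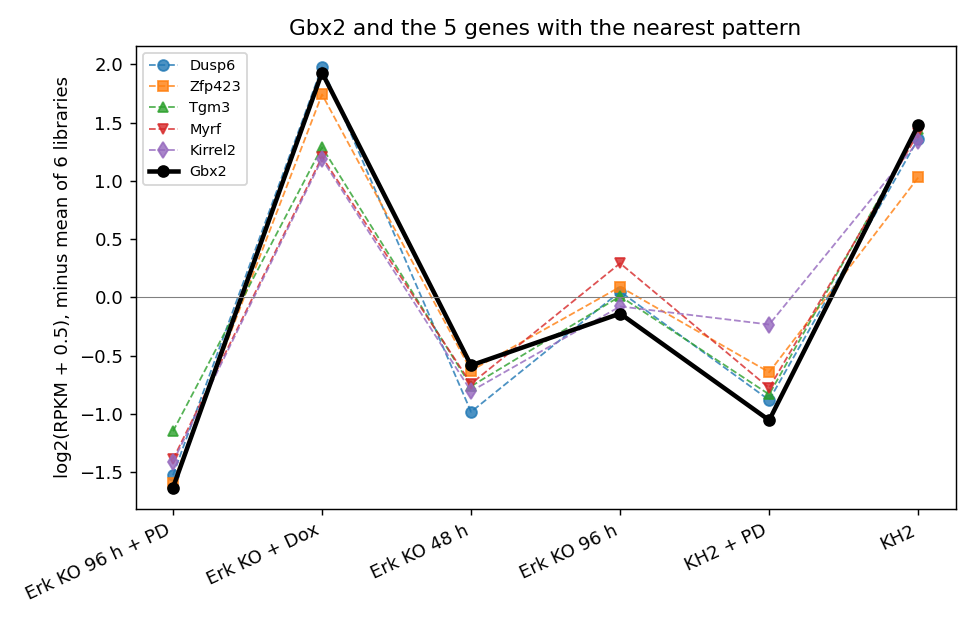
Log2(RPKM + 0.5) minus the mean of the 6 libraries (vertical axis) for Gbx2 (black) and the 5 genes with the nearest pattern, by library; lines join the points of a gene and show no time course. All 6 genes are above their mean in the engineered line with Dox and in untreated KH2 cells and farthest below it in Erk KO cells at 96 h with PD0325901.

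The deposited percent of each gene's length covered by reads showed a difference between the libraries. The covered length was set against that expected of 50-base reads placed at random, with an even chance all along the gene. Among genes of at least 1000 bases with 50 to 99 reads, the median ratio was 0.798 to 0.813 in the 4 libraries of the engineered line. It was 0.916 in both KH2 libraries. For Gbx2, 56 reads at 48 h covered 41.9% of the gene, where random placement would give 73.2%. Its 35 reads in treated KH2 cells covered 57.3%, where random placement would give 56.1%. Bcl3 had 88.6% covered by 144 reads at 96 h with PD0325901 and 78.6% covered by 171 reads at 96 h without it. Where reads pile up, the counting intervals may be too narrow, which bears most on Gbx2, Lif and Bcl3 in the engineered line. The inhibitor pairs and the Dox comparisons each lie within 1 cell line, and the line with Dox against KH2 cells does not.

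**Figure D5:**
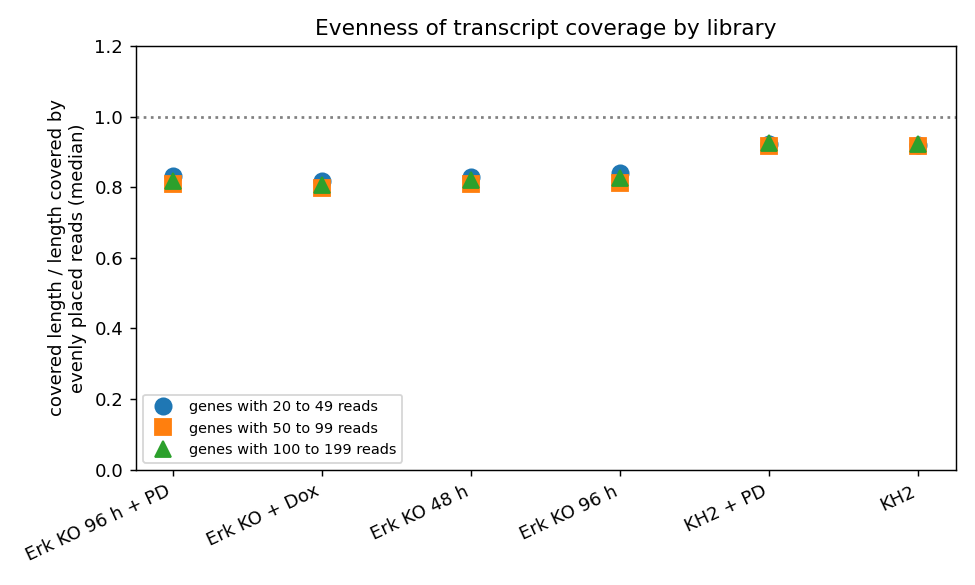
Median ratio of the covered length to the length expected of reads placed at random (vertical axis from 0), by library. Genes of at least 1000 bases are shown in 3 ranges of reads. The dotted line marks random placement with an even chance along the gene, which the axis calls evenly placed. The 4 libraries of the engineered line lie between 0.798 and 0.839 and both KH2 libraries between 0.916 and 0.924.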

How the data were processed

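PolyA RNA of 6 libraries, 1 per group, was read from 1 end over 50 bases and without strand marking, per the labels. The deposited count is the number of uniquely mapped reads per gene, and the authors' RPKM divides it by gene length and the sum of those counts, per the file headers. The authors also deposited the percent of each gene's length covered and the gene length. The submitters' processing notes name mm9 as the build, and aligner, counter and annotation are not given in the sources used here. Files were joined by gene ID, and genes without a row were set to 0 reads; 4 of the files lacked symbols, which came from RefSeq by gene ID for 18805 of 18857 genes. Lengths differed between files for 41 genes, none of them among the 9.

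Depth was 9.05 to 9.95 times 1e6 reads per library. Ratios used RPKM plus 0.5, and intervals are exact 95% Clopper-Pearson intervals of scaled reads. Reads carry no molecular identifiers, so intervals cover counting error only. Tests across genes used edgeR 4.0.16 (quasi-likelihood F test, TMM, at least 20 reads, Benjamini-Hochberg, threshold 0.05) in R 4.3.3, with DESeq2 1.42.0 as an alternative. The common fit had 1 residual degree of freedom and a median of 13.8 prior degrees of freedom, so its p-values rest on a spread borrowed across genes. Both steps were tested on simulated data. The text names the 9 genes, called genes of the pathway lists, Erk1 with 3 Erk targets, and the 5 genes nearest to Gbx2, Socs3 and Lif in pattern. Some genes that this rule names are not reported here. The 9 genes and the lists were chosen with earlier results of these data known. Alternatives were other pseudocounts, TMM or DESeq2 size factors, no filter, no block and all 6 libraries. The measure of even coverage was added after the data were seen. RefSeq promoters are of build GRCm38.p6, a later build than that of the files.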

Additional observations from a re-analysis of the deposited data

How the results depend on the processing

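Of 270 alternative values of the 9 genes, 264 kept their sign and 266 their call; the 4 changed calls (Lif and Socs3) and the sign changes stand beside their results. Gbx2 was called in the same 4 comparisons under every pseudocount, scaling and filter tried. Counts over all genes moved more. With a pseudocount of 0.1 the lower calls were 275 for PD0325901 in KH2 cells, 112 in Erk KO cells and 89 at 96 h against 48 h. With a pseudocount of 1 they were 44 for PD0325901 in Erk KO cells and 160 at 48 h, and 314 higher and 35 lower at 96 h against 48 h. DESeq2 size factors gave 87 lower at 96 h against 48 h, and for the line with Dox against KH2 cells 1141 higher and 1325 lower, against 1006 higher and 1419 lower with TMM.

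In the common test edgeR gave 894 higher and 432 lower, DESeq2 344 higher and 106 lower, DESeq2 size factors in edgeR 665 lower, and all 6 libraries 103 higher and 15 lower. With no replicate block for cell state it gave 0 higher and 0 lower, with 270 genes at an unadjusted p under 0.05; the labels give no replicate numbers, and the block is the cell state of each pair. Gbx2 kept an edgeR or DESeq2 adjusted p between 2.28e-10 and 0.0295 under the other 4 alternatives, while Socs3 was lost in DESeq2 (0.384), with all 6 libraries (edgeR adjusted p = 0.315) and without the block. The difference between the pairs gave 1 lower gene with DESeq2 size factors in edgeR and 2 lower without the filter. The causes were not tested. Leaving out a library was not possible in any comparison, since each group has 1 and the common fit would have no residual degree of freedom. Depth limits Gbx2 most: 22 reads in treated Erk KO cells give the widest interval of its 4 calls.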
